A study of Mus musculus with 8 samples.

Results

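CD74, its ligands MIF and D-dopachrome tautomerase (gene Ddt) and the partner receptors CD44 and CXCR4 are described here through their transcripts in dendritic cells (DCs) sorted from mouse tumours. The 5 genes, Cd74, Mif, Ddt, Cd44 and Cxcr4, were chosen by name, and all 5 were found among the 10825 genes listed in the deposited counts and among the 6156 that were tested. Tumours were grown in wild-type (WT) mice from E0771, a mouse mammary carcinoma line. The mice received either PBS or DRQ, described in the labels as an inhibitor of CD74, from day 10, and DCs were taken 3 weeks after injection. There were 4 PBS libraries and 4 DRQ libraries; all 8 shared the WT genotype and the tumour. The sources used here do not state the dose, the sorting gate, the mouse strain and age, or whether a library came from 1 mouse or a pool. The p-values therefore measure the spread between these libraries, which may be technical.

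CD74 is the invariant chain, a membrane protein that binds newly made MHC class II molecules and escorts them to endosomes, where proteases degrade it. A portion of CD74 reaches the cell surface and serves as the receptor for the cytokine MIF. MIF and its homologue D-dopachrome tautomerase bind CD74, which signals through the adhesion receptor CD44, and MIF also engages the chemokine receptor CXCR4. DCs are rich in CD74 because they present antigen on class II, and the cytoplasmic fragment left after CD74 is cut can act in the nucleus.

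Promoter sequences of the 2 ligand genes and of Cxcr4, the co-receptor gene with the largest estimated difference, are printed so that their start regions can be compared. They are RefSeq sequences of build GRCm38.p6, 250 bases before to 30 bases after the annotated start, read 5′ to 3′ on the gene's strand. They were matched by symbol (4 of the 5 genes, Mif, Ddt, Cd44 and Cxcr4, had an entry), and no count was taken by these coordinates. Capitals mark matches, on either strand, to the hypoxia-inducible factor core ACGTG, to the cAMP response element TGACGTCA, to the TATA box TATAAA and to the CCAAT box, and overlapping matches run together. The Mif window is chr10:75860248-75860527, the Ddt window chr10:75773345-75773624 and the Cxcr4 window chr1:128592270-128592549, all on the minus strand.
Mif: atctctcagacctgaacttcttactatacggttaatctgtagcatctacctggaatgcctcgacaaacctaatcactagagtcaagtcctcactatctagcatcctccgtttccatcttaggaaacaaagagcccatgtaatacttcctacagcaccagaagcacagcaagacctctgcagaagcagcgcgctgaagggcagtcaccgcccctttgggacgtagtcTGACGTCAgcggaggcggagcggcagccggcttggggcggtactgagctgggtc
Ddt: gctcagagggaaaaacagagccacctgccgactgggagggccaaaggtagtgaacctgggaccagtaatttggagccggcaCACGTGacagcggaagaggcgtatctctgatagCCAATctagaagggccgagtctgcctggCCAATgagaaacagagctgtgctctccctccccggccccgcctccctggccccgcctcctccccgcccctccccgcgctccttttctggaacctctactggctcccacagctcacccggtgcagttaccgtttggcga
Cxcr4: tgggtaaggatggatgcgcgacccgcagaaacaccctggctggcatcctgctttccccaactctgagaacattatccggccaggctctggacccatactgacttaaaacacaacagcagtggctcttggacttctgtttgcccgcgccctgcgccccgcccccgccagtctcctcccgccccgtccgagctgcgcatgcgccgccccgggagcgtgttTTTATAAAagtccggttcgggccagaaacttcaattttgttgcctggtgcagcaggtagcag

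The Mif window held the cAMP response element with its first base 24 bases before the start. This motif stood in 1.74% of the 32851 promoter windows of this length. The Ddt window held CCAAT with first bases 136 and 108 bases before the start, and the palindrome CACGTG, which holds ACGTG on both strands, from 169 bases before it. CCAAT stood in 36.1% and ACGTG in 18.5% of all windows. The Cxcr4 window held TATAAA on both strands, with first bases 32 and 30 bases before the start, and 13.1% of windows held it. The Mif and Cxcr4 windows held no ACGTG, and the Ddt and Cxcr4 windows held no cAMP response element. The Cd44 window, searched but not printed, held ACGTG with its first base 29 bases before the start. These matches describe letters and not binding.

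The counts came from bulk MARS-seq, which reads the 3′ ends of polyadenylated RNA, so splice forms of Cd74 and Cd44 that share an end cannot be told apart. Total counts ran from 361792 to 543892 in the PBS libraries and from 438648 to 539381 in the DRQ libraries. Levels are given as CPM, counts divided by the library's total of tested genes and its TMM factor. The limit that a count of 0 allows, 3 counts, came to between 5.73 and 9.01 CPM and covers counting error only. The labelled cell type was checked against markers. Cst3, abundant in DCs though not exclusive to them, averaged 3039 ± 1054 CPM with PBS against 4117 ± 160 CPM with DRQ (SD, n = 4). Irf8 averaged 1721 ± 431 and 2024 ± 322 CPM, while Zbtb46, a defining gene of conventional DCs, was near its limit at 2.10 ± 1.41 and 10.2 ± 9.78 CPM (SD, n = 4). Xcr1 and Clec9a, markers of type 1 conventional DCs, were not among the 10825 genes listed in the counts, so neither has a value here. Markers of natural killer (NK) cells were abundant, and their 9 genes summed to between 11922 and 16693 CPM in PBS and between 10096 and 15613 CPM in DRQ. T cell markers, 9 of 10 listed, summed to between 1845 and 2688 CPM in PBS and between 2371 and 2518 CPM in DRQ. Of these 9, 4 (Cd3d, Trac, Cd4 and Cd5) were higher in DRQ at an unadjusted p under 0.05, beside 3.98% of genes tested. With edgeR 0 of the 9 passed over all genes. Of the 9 estimates 6 were above 0, while Cd8a (log2 fold change -0.65), Cd3e (-0.35) and Trbc1 (-0.11), the most abundant of them, were below it. The part of T cell markers in the differences of Cd74 and Cxcr4 was not tested. Of 6 B cell markers 2 were listed, Cd79b and Ighm, with most of the counts from Ighm. They summed to between 198 and 308 CPM in PBS and between 278 and 502 CPM in DRQ. Ighm stood at a log2 fold change of 0.55 (edgeR, unadjusted p = 0.00553, adjusted p = 0.370). Epithelial and tumour cell markers, 4 of 6 listed and most of them Krt8 by count, summed to between 120 and 247 CPM in PBS and between 30.6 and 157 CPM in DRQ. Krt8 averaged 155 ± 41.8 and 73.6 ± 38.3 CPM (SD, n = 4; log2 fold change -1.08; edgeR, adjusted p = 0.333). Its DRQ range lay wholly below the PBS range, as for 2.18% of genes tested. Krt18, the other tested gene, stood at -0.01. No listed marker was at 0 in all libraries. In bulk samples fewer cells of a type and less RNA per cell cannot be told apart.

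Over the whole table, edgeR's quasi-likelihood test called 2 of 6156 genes at an adjusted p under 0.05, or 0.0325%, both higher in DRQ and neither of them among the 5 genes. At an unadjusted p under 0.05 it gave 447 genes, or 7.26%, with 3.98% of genes tested higher and 3.28% lower. Leaving out PBS replicate 3 or 4 gave 6 or 15 genes with edgeR, and leaving out DRQ replicate 3 or 4 gave 0 or 7. DESeq2 called 17 of the 2011 genes it adjusted, or 0.845%. Of the 5 genes, 0 passed over all genes with edgeR, 2 (Cd74 and Cxcr4) had an unadjusted p under 0.05, and 1 (Cd74) was called by DESeq2. All 5 passed the filter on low counts, and 4 of the 5 estimates were above 0, with a median log2 fold change of 0.39 against -0.012 over all genes tested. The DRQ range lay wholly above the PBS range for 1 of the 5 (Cd74) and for 2.14% of genes tested, and wholly below it for 0 of the 5 and for 2.18%.

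**Figure D1:**
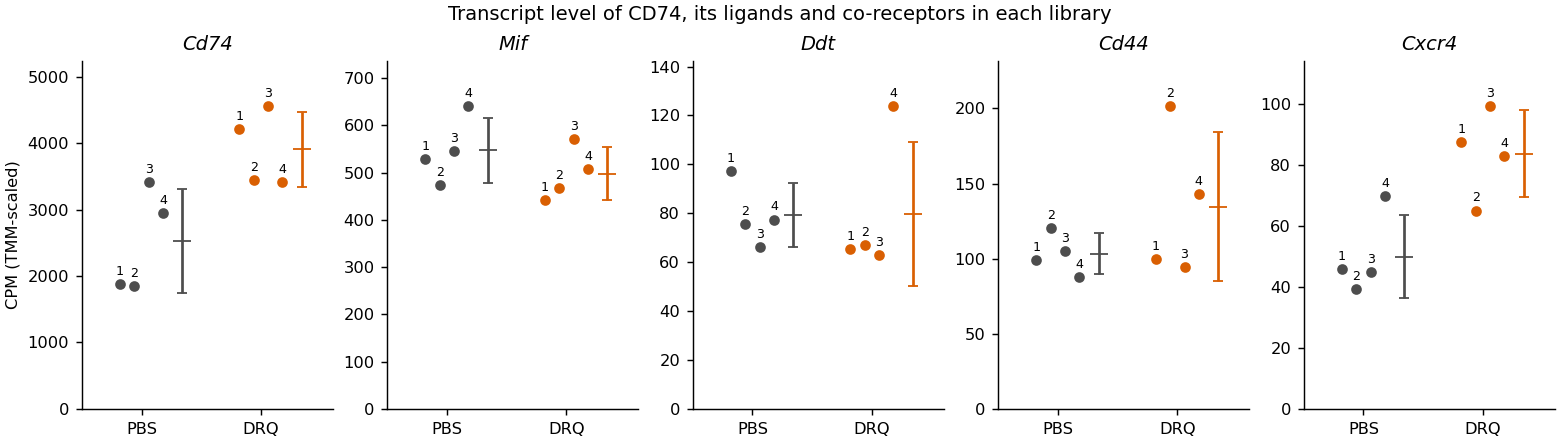
Level of each gene in each library, in TMM-scaled CPM on axes that start at 0. Points are libraries labelled by replicate number, and the bar beside them is the mean with its SD (n = 4). Cd74 ran from 1853 to 3409 CPM in PBS and from 3413 to 4552 CPM in DRQ, while the groups overlapped for Mif, Ddt, Cd44 and Cxcr4.

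Among the ligands, Mif encodes a cytokine stored ready-made in many immune and tumour cells, and its level stayed within a narrow range. Mif (ENSMUSG00000033307) stood at 529, 475, 547 and 640 CPM in PBS replicates 1 to 4. It stood at 443, 468, 571 and 508 CPM in DRQ replicates 1 to 4. The ranges overlapped over most of their length, with PBS replicate 4 the highest library and DRQ replicate 1 the lowest. The means were 548 ± 69.0 CPM with PBS against 497 ± 56.1 CPM with DRQ (SD, n = 4). The log2 fold change was -0.14 ± 0.15 (SE), with a 95% interval from -0.44 to 0.16 (edgeR, adjusted p = 0.892 over all genes). In fold terms the interval ran from 0.738 to 1.12, so a change of 2-fold in either direction lay outside it. Mif has near-identical pseudogene copies, and how reads were split among them is unknown, so its level is uncertain.

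Ddt encodes the second ligand of CD74 in this family. Another gene, Gm20441, is annotated over Ddt on the same strand. How reads there were counted is unknown, so the level of Ddt is uncertain. Ddt (ENSMUSG00000001666) stood at 97.4, 75.8, 66.1 and 77.5 CPM in PBS replicates 1 to 4 and at 65.3, 67.1, 62.9 and 124 CPM in DRQ replicates 1 to 4. In DRQ 3 libraries lay close together at the low end of the PBS range or under it, and replicate 4 lay above every other library. The means were 79.2 ± 13.2 and 79.7 ± 29.3 CPM (SD, n = 4). The log2 fold change was 0.0051 ± 0.28 (SE; 95% interval -0.57 to 0.58; edgeR, adjusted p = 0.999) and -0.29 without DRQ replicate 4. DRQ replicate 4 also held the highest sum of macrophage markers, 906 CPM against at most 514 CPM in the other libraries, and its part in the Ddt value was not tested. The 22 to 64 counts per library gave Ddt a mean counting error of 18.2% in PBS and 16.8% in DRQ, beside a spread between libraries of 16.6% and 36.8%.

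Cd74, the receptor and the stated target of DRQ, had the smallest p of the 5 genes, and 0.942% of genes tested had a smaller one. Cd74 (ENSMUSG00000024610) stood at 1885, 1853, 3409 and 2948 CPM in PBS replicates 1 to 4. It stood at 4207, 3450, 4552 and 3413 CPM in DRQ replicates 1 to 4. The PBS libraries formed a low pair, replicates 1 and 2, and a high pair, replicates 3 and 4, and the DRQ libraries lay above the low pair throughout. Counting error was 3.25% in PBS and 2.33% in DRQ, far below the spread between libraries of 30.9% and 14.5%. The log2 fold change was 0.63 ± 0.18 (SE), a fold of 1.55 with a 95% interval from 1.19 to 2.02, and did not pass over all genes (edgeR, adjusted p = 0.317). It passed without PBS replicate 3, the PBS library with the highest Cd74 (log2 fold change 0.81, edgeR adjusted p = 0.0187), and with DESeq2 (0.64, adjusted p = 0.0440). In the other 19 of 21 alternative fits it did not pass, and without DRQ replicate 1 the edgeR adjusted p was 0.705.

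Whether the Cd74 ranges touched depended on the scale, a comparison chosen after the values were seen. With TMM factors over the counts of tested genes, PBS replicate 3 at 3409 CPM lay just under DRQ replicate 4 at 3413 CPM, so the groups were barely apart. With library totals and no factor the gap was wider, from 3099 CPM in PBS replicate 3 to 3237 CPM in DRQ replicate 2. With TMM factors over all counts the ranges overlapped (3249 CPM in PBS replicate 3 against 3227 CPM in DRQ replicate 4). In the authors' deposited normalized table they overlapped too (1449 against 1433 normalized counts in the same libraries). For the other 4 genes the ranges overlapped on all 4 scales.

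PBS replicates 1 and 2, low in Cd74, had the lower sums of conventional, type 1 conventional, mature and plasmacytoid DC markers among the PBS libraries, but not of type 2 conventional DC markers. The 4 conventional DC markers, most of them Cst3 by count, summed to 2831 and 2069 CPM in PBS replicates 1 and 2 and to 4536 and 3692 CPM in replicates 3 and 4. In DRQ the same sum lay between 4235 and 4560 CPM. Mature DC markers, 6 of the 7 in the list, summed to between 272 and 594 CPM in PBS and between 688 and 1188 CPM in DRQ, and type 2 conventional DC markers to between 90.4 and 141 and between 155 and 343 CPM. For both of these lists the sums did not overlap between the groups, although within PBS the type 2 sum was highest in replicate 1 and lowest in replicate 4. Of the tested genes 1 in each list, Ccr7 and Mgl2, had a DRQ range wholly above the PBS range, beside 2.14% of all genes tested. All 6 tested mature DC markers had estimates above 0, with a median log2 fold change of 0.99. Of these 6, 5 had an unadjusted p under 0.05 with edgeR, beside 3.98% of genes tested higher at that p. For type 2 conventional DC markers it was 1 of 3 tested. With edgeR 0 of either list passed over all genes. Mgl2 averaged 27.0 CPM with PBS and 93.4 CPM with DRQ, Sirpa 37.1 and 35.4 CPM and Irf4 31.6 and 34.5 CPM. Cd209a and Clec10a, too low to be tested, averaged 10.6 and 8.64 CPM with PBS against 35.2 and 44.0 CPM with DRQ. Type 1 conventional DC markers, 5 of 8 listed and most of them Irf8 by count, summed to between 1446 and 2367 CPM in PBS and between 1940 and 2636 CPM in DRQ. Plasmacytoid DC markers, 3 of 4 listed and most of them Bst2 by count, summed to between 503 and 964 CPM and between 665 and 958 CPM. The sums of these 2 lists, like that of the 4 conventional DC markers, overlapped between the groups. The part of these markers in the Cd74 difference was not tested.

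Cd44, an adhesion receptor for hyaluronan that transmits the CD74 signal, is made by most leukocytes. Cd44 (ENSMUSG00000005087) stood at 99.3, 121, 105 and 87.8 CPM in PBS replicates 1 to 4. It stood at 99.9, 201, 94.4 and 143 CPM in DRQ replicates 1 to 4. DRQ replicates 2 and 4 lay above every PBS library, while DRQ replicates 1 and 3 lay within the PBS range. The means were 103 ± 13.7 and 135 ± 49.5 CPM (SD, n = 4). The log2 fold change was 0.39 ± 0.25 (SE; 95% interval -0.12 to 0.90; edgeR, adjusted p = 0.783). It was 0.13 without DRQ replicate 2.

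Cxcr4, the receptor for the chemokine CXCL12 and a partner of CD74 in MIF signalling, had the largest estimate of the 5 genes and the lowest counts, 14 to 43 per library. Cxcr4 (ENSMUSG00000045382) stood at 45.8, 39.3, 45.1 and 69.7 CPM in PBS replicates 1 to 4. It stood at 87.7, 65.1, 99.2 and 83.1 CPM in DRQ replicates 1 to 4. DRQ replicate 2 lay below PBS replicate 4, and DRQ replicates 1, 3 and 4 exceeded every PBS library. The means were 49.98 ± 13.5 and 83.8 ± 14.2 CPM (SD, n = 4). The log2 fold change was 0.74 ± 0.29 (SE; 95% interval 0.14 to 1.33; unadjusted p = 0.0174), and it did not pass over all genes (edgeR, adjusted p = 0.562). Counting error averaged 23.1% in PBS and 15.9% in DRQ, close to the spread between libraries of 27.0% and 16.9%. Cxcl12, its ligand, was too low to be tested, at 9.66 ± 11.2 CPM with PBS against 16.2 ± 9.29 CPM with DRQ (SD, n = 4).

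**Figure D2:**
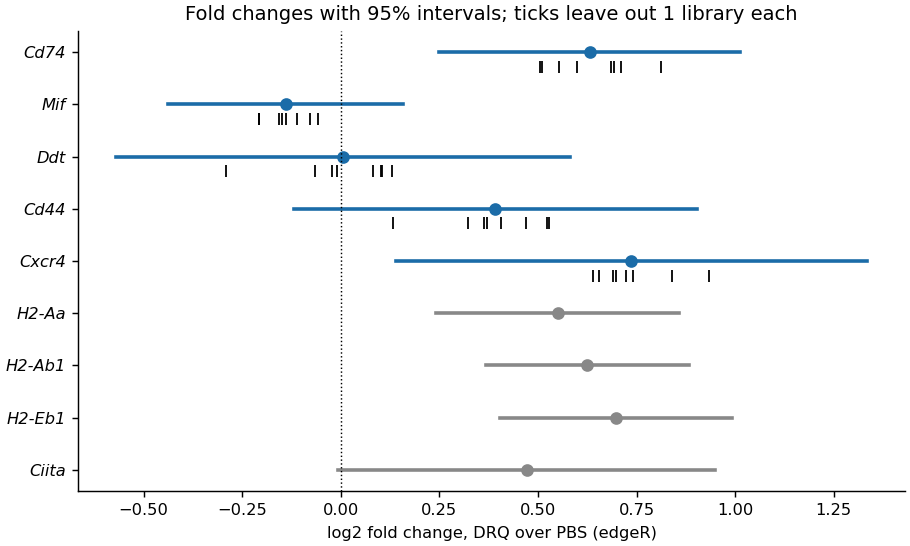
Log2 fold changes of DRQ over PBS with 95% intervals from edgeR for the 5 genes (blue) and for 3 class II chains and Ciita (grey). Black ticks under a gene are the estimates with 1 library left out each. The intervals of Cd74 (0.25 to 1.01) and Cxcr4 (0.14 to 1.33) lay above 0, and those of Mif, Ddt and Cd44 included 0.

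Ratios of counts within a library do not depend on depth or scaling, and 6 were compared by exact 2-sided permutation of the 8 libraries, which can give no p below 0.0286. They were chosen with the values of Cd74, Mif, Cd44 and Cxcr4 known, and 0 of the 6 passed after Benjamini-Hochberg adjustment over the 6. The first ratio set Cd74 against the class II molecules it escorts. For each count of the 3 chains H2-Aa, H2-Ab1 and H2-Eb1 there were 0.396, 0.452, 0.529 and 0.471 counts of Cd74 in PBS replicates 1 to 4. The same ratio was 0.504, 0.444, 0.485 and 0.446 in DRQ replicates 1 to 4. The DRQ values lay inside the PBS range. The means were 0.462 ± 0.055 and 0.470 ± 0.029 (SD, n = 4), a log2 difference of 0.029 with a 95% permutation interval from -0.25 to 0.34 (exact permutation p = 0.771, adjusted p = 0.771).

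Ligand transcripts per Cd74 transcript stood lower on average in DRQ, and the groups overlapped by 1 pair of libraries. For each count of Cd74 there were 0.332, 0.297, 0.180 and 0.243 counts of Mif and Ddt together in PBS replicates 1 to 4. In DRQ replicates 1 to 4 there were 0.121, 0.155, 0.139 and 0.185. PBS replicate 3, at 0.180, lay just below DRQ replicate 4, at 0.185, and the other 3 PBS libraries lay above all DRQ libraries. The log2 difference was -0.79 ± 0.23 (SE), with a 95% permutation interval from -1.46 to 0.04 (exact permutation p = 0.0571, adjusted p = 0.343).

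Cd74 per count of the 4 conventional DC markers averaged 0.778 ± 0.096 in PBS and 0.899 ± 0.158 in DRQ (SD, n = 4), with overlapping ranges. The log2 difference was 0.20, with a 95% permutation interval from -0.24 to 0.69 (exact permutation p = 0.257, adjusted p = 0.686). Mif per Ddt averaged 7.06 ± 1.44 and 6.73 ± 2.04, and the lowest value, 4.11, was in DRQ replicate 4, the library with the high Ddt. Its log2 difference was -0.10, with a 95% permutation interval from -1.005 to 0.74 (exact permutation p = 0.771, adjusted p = 0.771). The levels of both Mif and Ddt are uncertain, because how their reads were assigned is unknown. Cd44 per Cd74 averaged 0.0446 ± 0.0173 and 0.0362 ± 0.0175, and Cxcr4 per Cd44 averaged 0.502 ± 0.203 and 0.708 ± 0.322 (SD, n = 4). The exact permutation p was 0.457 for the former and 0.400 for the latter, adjusted p = 0.686 for each, and their log2 intervals ran from -1.65 to 0.97 and from -1.29 to 1.69.

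**Figure D3:**
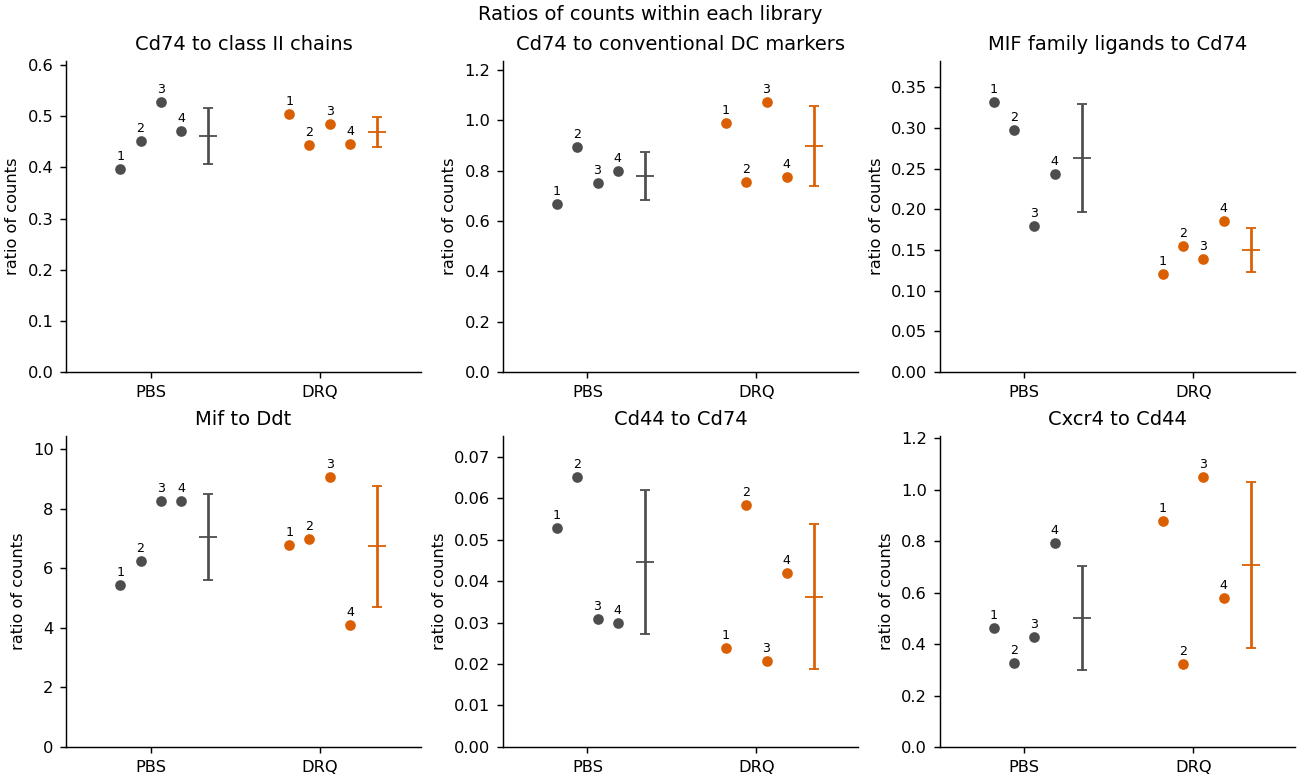
Ratios of summed counts within each library, on axes that start at 0; points are libraries labelled by replicate number, and bars are means with SD (n = 4). Cd74 per class II count averaged 0.462 in PBS and 0.470 in DRQ, and ligand counts per Cd74 count averaged 0.263 and 0.150.

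The genes whose pattern over the 8 libraries was most like each of the 5 were taken as those with the highest Pearson r on log2 CPM among 3596 genes with a mean of at least 50 CPM. These values describe 8 libraries in 2 groups and carry no test. Cd74 was followed most closely by Gapvd1, which encodes an endocytic regulator (r = 0.97), Ppp1r15b, of the stress response (0.97), the class II chain gene H2-Aa (0.97), the homing receptor gene Ccr7 (0.96) and the class II chain gene H2-Ab1 (0.96). The order of the 8 libraries by Cd74 was the same as by Ccr7 and by H2-Ab1 (Spearman rho of 1 for each). All 5 followed Cd74 also in the deviations from the group means (r from 0.91 to 0.95), where PBS replicates 1 and 2 lay below replicates 3 and 4.

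Cxcr4 was nearest to Cerk, which encodes ceramide kinase (r = 0.96), the transcription factor gene Crem (0.95) and Sema7a (0.95). The chemokine gene Cxcl16 (0.95) and Cyp4f18 (0.94) came next. This list and that of Cd74 hold only the nearest genes and do not show separate sets. Like Cd74, Crem was lowest in PBS replicates 1 and 2 and highest in DRQ replicates 1 and 3. Crem averaged 63.9 ± 20.9 CPM with PBS against 131 ± 29.9 CPM with DRQ, and Cxcl16 30.6 ± 13.6 and 82.8 ± 29.2 CPM (SD, n = 4); neither passed over all genes (edgeR, adjusted p = 0.166 and 0.148). The genes nearest to Mif were Cox5a, a subunit of the respiratory chain (r = 0.95), Tmem256 (0.91), the proteasome subunit gene Psmb3 (0.91), the ribosomal protein gene Rpl27 (0.91) and Gm6394 (0.91). Ddt was nearest to C1qb, a complement gene of macrophages (r = 0.92), at 135 CPM in DRQ replicate 4 and at most 70.7 CPM in the other libraries. Dpm2 (0.88), Hist1h2bc (0.87), Gm14586 (0.87) and Zfas1 (0.84) came next. Cd44 was nearest to Fbrs (0.95), the RNA helicase genes Ddx27 (0.92) and Ddx39b (0.90), Sbf1 (0.89) and Cnot3 (0.87), which shared its high value in DRQ replicate 2.

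**Figure D4:**
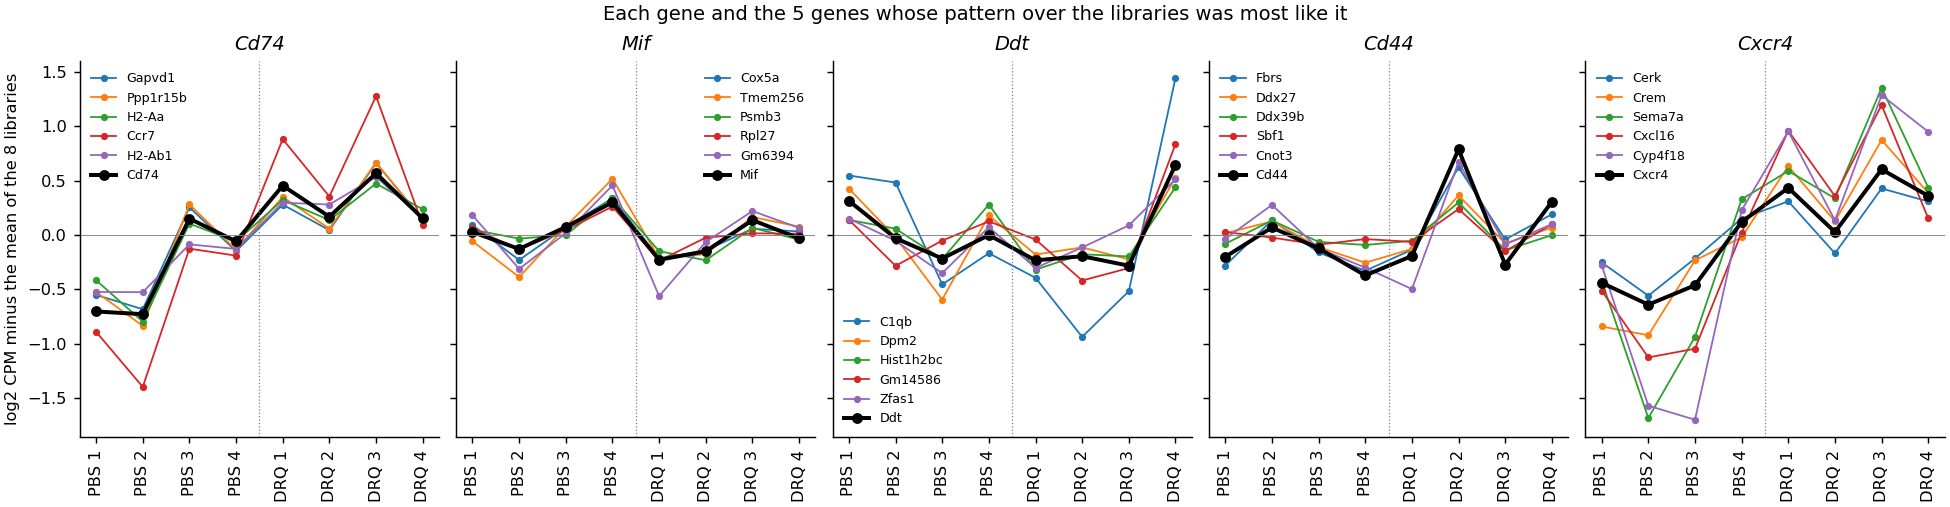
Log2 CPM minus the mean of the 8 libraries for each of the 5 genes (black) and the 5 genes most like it (colours), library by library; the dotted line parts PBS from DRQ. In the Cd74 panel PBS replicates 1 and 2 are the lowest libraries for all 6 genes, and in the Ddt panel DRQ replicate 4 is the highest for all 6.

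Genes around CD74 were read from 10 lists by role, 71 symbols in all, of which 57 were tested. With edgeR 0 of the 57 passed over all genes, 9 higher and 3 lower had an unadjusted p under 0.05, and 39 estimates were above 0. Over all genes tested 3.98% were higher and 3.28% lower at that p, and 2979 of 6156 estimates were above 0. The median log2 fold change was 0.16, and 0.15 over the 52 genes left without the 5, against -0.012 over all genes tested. The lists were chosen with earlier results of these data known.

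The list of class II chains that CD74 escorts and of class II loading genes had the highest median among the lists by role apart from the receptors. All 7 tested genes of that list had estimates above 0, with a median of 0.55, and 3 had an unadjusted p under 0.05, beside 2979 of 6156 estimates above 0 and 3.98% higher at that p over all genes tested. H2-Ab1 ran from 1971 to 2673 CPM with PBS and from 3160 to 4111 CPM with DRQ (log2 fold change 0.62 ± 0.13, edgeR adjusted p = 0.0515). H2-Eb1 ran from 969 to 1727 CPM and from 2109 to 2488 CPM (0.70 ± 0.14, edgeR adjusted p = 0.0515). H2-Aa ran from 1157 to 2163 CPM and from 2213 to 2792 CPM (0.55 ± 0.15, edgeR adjusted p = 0.218). For each of these 3 chains the DRQ range lay wholly above the PBS range, as for 2.14% of genes tested, and none passed over all genes. H2-DMa, a chain of the peptide-loading chaperone, stood at 0.014 ± 0.19 (log2 fold change, SE) and H2-DMb1, its partner, at 0.33 ± 0.20. Of the 5 tested transcription regulators of this gene set 3 had estimates above 0. Ciita, the class II transactivator, which also drives Cd74, averaged 127 ± 33.8 CPM with PBS against 177 ± 46.6 CPM with DRQ (SD, n = 4; log2 fold change 0.47 ± 0.23; edgeR, adjusted p = 0.681). Rfxap and Nfyc, subunits of the factors that bind class II promoters, stood at 0.18 ± 0.33 and -0.17 ± 0.37.

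Among the 7 tested genes of invariant chain degradation 5 had estimates above 0. Ctss, the main protease of CD74 in DCs, stood at a log2 fold change of 0.24 ± 0.18 (SE), Ifi30, the lysosomal thiol reductase, at 0.27 ± 0.17, and Sppl2a, which cuts the last membrane fragment, at 0.24 ± 0.52. Ctsl, a related protease, stood at -0.73 ± 0.31 and averaged 132 ± 38.0 CPM with PBS against 81.3 ± 44.5 CPM with DRQ (SD, n = 4; edgeR, adjusted p = 0.627). Cst3, an inhibitor of these proteases and also a DC marker, stood at 0.44 ± 0.20 (adjusted p = 0.678).

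Of 14 tested effectors of CD74 signalling 9 had estimates above 0, with a median of 0.13. Hif1a, a transcription factor of the hypoxia response, averaged 22.2 ± 5.47 CPM with PBS against 50.4 ± 17.5 CPM with DRQ (SD, n = 4; log2 fold change 1.16 ± 0.40; edgeR, adjusted p = 0.413). Runx3 stood at 0.49 ± 0.20 (adjusted p = 0.585) and the survival gene Mcl1 at 0.34 ± 0.18 (edgeR, adjusted p = 0.698). Mcl1 was the 1 effector of the 14 whose DRQ range lay wholly above the PBS range, beside 2.14% of all genes tested. The ranges were barely apart, with 216.9 CPM in PBS replicate 4 against 217.8 CPM in DRQ replicate 3, where 1 count is 2.42 CPM. Other scales were not compared for Mcl1. Syk, a kinase that CD74 signals through, stood at 0.32 ± 0.26 and Nfkb1 and Rela, NF-kB subunits, at 0.16 ± 0.18 and -0.29 ± 0.22. Of the 3 tested MIF partners, Rps19, St13 and Cops5, none had an estimate above 0, at -0.15 ± 0.12, -0.35 ± 0.34 and -0.07 ± 0.32.

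Of 7 tested partners of CD44 4 had estimates above 0, with a median of 0.03. Mmp14, a membrane protease that sheds CD44, averaged 48.5 ± 40.7 CPM with PBS against 17.5 ± 14.6 CPM with DRQ (SD, n = 4; log2 fold change -1.44 ± 0.65; edgeR, adjusted p = 0.669), and its highest library was PBS replicate 2, at 107 CPM. Slc3a2 stood at 0.28 ± 0.15 and Srgn, the proteoglycan serglycin, at 0.21 ± 0.14. Of 9 tested genes of CXCR4 signalling and related chemokine receptors 7 had estimates above 0. The arrestin genes, whose products switch off chemokine receptors, had opposite signs, with Arrb1 at 0.80 ± 0.40 and Arrb2 at -0.40 ± 0.17 (edgeR, adjusted p = 0.698 and 0.627). Ccr7, the lymph node homing receptor, stood at 1.32 ± 0.29 (adjusted p = 0.127).

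**Figure D5:**
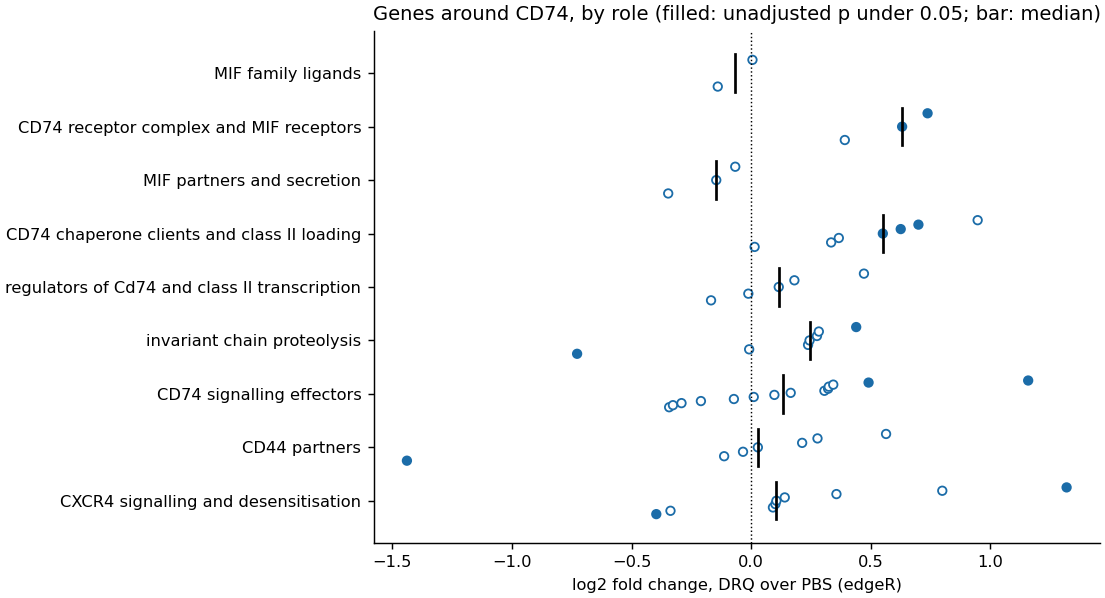
Log2 fold changes of DRQ over PBS (edgeR) for the 57 tested genes around CD74, by role; filled points have an unadjusted p under 0.05 and black bars are list medians. The class II list has its median at 0.55 and the list of CD74 signalling effectors at 0.13.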

How the data were processed

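The 8 libraries of sorted tumour DCs were made by bulk MARS-seq with molecular identifiers, per the labels' protocols. Among tools and builds, the submitters' processing notes list STAR 2.7.3a, HTSeq, cutadapt, bcl2fastq 2.20.0.422, DESeq, DESeq2 1.26.0 and GRCm39, with no roles. The authors deposited counts per Ensembl gene; the sources used here do not state whether identifiers were collapsed or strand was used. A second deposited table gives a normalized signal, and its 86600 values lay within 0.00500 of the count over the library's median-ratio factor.

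A GRCm38 name table matched 10788 of 10825 IDs, and the 37 others held 0.186% of all counts. In R 4.3.3, edgeR 4.0.16 was run with TMM, filterByExpr and a robust quasi-likelihood test, with Benjamini-Hochberg adjustment over all 6156 genes tested and a threshold of 0.05. The genes tested held 94.9% of all counts, and CPM use those counts. Ratios were compared by exact permutation of library labels (70 assignments). Alternatives were DESeq2 1.42.0, limma 3.58.1 (voom, or log2 of the normalized value plus 1 or 4), other scalings and filters, a replicate block and left-out libraries. The 5 genes, the lists and the ratios were chosen with earlier results of these data known. Genes named were the 5, H2-Aa, H2-Ab1, H2-Eb1 and Ciita, up to 3 per list with the smallest p, and the 5 most like each gene. H2-DMa, H2-DMb1, Ctss, Sppl2a, Syk, Nfkb1, Rela, Cxcl12 and the cell type markers were added for their roles after their values were seen. Between every pair of libraries, counts differed by more than sampling noise, with a chi-square of 2.60 to 4.21 per degree of freedom. Figures were drawn with matplotlib 3.10.9.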

Additional observations from a re-analysis of the deposited data

Results flagged for a closer look

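The Ddt level of 124 CPM in DRQ replicate 4 lay far from the other 3 DRQ libraries, at 62.9 to 67.1 CPM; its gap to the nearest was 0.931 of the group's range. It was the only one of 22 sets of 4 values looked at (each gene's level and each ratio, in each group) with such a gap, where chance alone gives about 1 in 20. The same library held the highest C1qb level, 135 CPM.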

How the results depend on the processing

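Across 21 alternative fits Cd74, Cd44 and Cxcr4 kept estimates above 0 and Mif below 0. Leaving out 1 library each, the log2 fold change ran from 0.50 to 0.81 for Cd74, from -0.21 to -0.06 for Mif, from 0.13 to 0.53 for Cd44 and from 0.64 to 0.93 for Cxcr4. Cd74 passed with DESeq2 (log2 fold change 0.64, adjusted p = 0.0440) and without PBS replicate 3. It did not pass in the other 19 fits, among them the replicate block (0.67, edgeR adjusted p = 0.0645). Ddt, whose estimate is near 0, had the opposite sign with upper-quartile factors (-0.0058), limma-voom (-0.053), voom with quality weights (-0.050), the replicate block (-0.030), the normalized table with 1 or 4 added (-0.027 and -0.022) and without PBS libraries 2 and 3 together (-0.13); with 1 library left out it ran from -0.29 to 0.13. The count of genes called was 2 as reported, 7 with library size only, 8 with no filter, 17 with DESeq2, 6 with the replicate block, 4 with the normalized table plus 4, 0 without PBS libraries 2 and 3 together, and 0 (without DRQ replicate 3) to 15 (without PBS replicate 4) with 1 library left out. The cause was not tested. With 1 library left out the Cd74 to class II log2 difference ran from -0.043 to 0.10 and Mif to Ddt from -0.26 to 0.12, and no ratio passed under any alternative. Whether replicate numbers pair the samples was not settled. Same-numbered deviations correlated at 0.08, -0.01, 0.06 and -0.01, and in 2 of 4 numbers the same-numbered library was the best match. DESeq2 gave Ddt and Cxcr4 no adjusted p. Counts of 14 to 43 per library limit what can be seen for Cxcr4.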

Other observations

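Mif is a short gene with many processed copies in the mouse genome, and the last 400 bases of its coding transcripts shared stretches of 31 bases with 7 other annotated genes (GENCODE M21). Of these 1, the pseudogene Gm10169, was listed with counts; it shared 58.4% of these stretches and held 114 counts in all, against 1822 for Mif. Gm10169 stood at 31.9 ± 8.41 CPM with PBS against 32.9 ± 15.6 CPM with DRQ (SD, n = 4). With its counts added, Mif stood at 580 ± 63.9 and 530 ± 70.8 CPM. The sources used here do not state how the authors' counting split reads among these copies, so the level of Mif is uncertain. Cd74 and Cd44 shared no such stretch with another gene. Ddt shared 40.8% with Gm20441, a gene annotated over it on the same strand and not analysed here, and Cxcr4 shared 0.270% with Rc3h2. How reads over Ddt and Gm20441 were counted is not stated either, so the level of Ddt is also uncertain.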
